A study of Homo sapiens with 4 samples.

Results

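The 4 fibrinogen chain genes described here are FGA, FGB and FGG, which encode the alpha, beta and gamma chains of fibrinogen, and FGL1, which encodes a secreted fibrinogen-like protein. They are 4 of the 19775 genes read by at least 1 probe set with a single gene name, and 7 probe sets read them. The group was chosen by measured values of the same contrast described below, in which FGB was among the genes with the largest difference. Their own differences are therefore given as a description, without a test. Each gene is represented by its brightest probe set over the 4 arrays, and the other probe sets serve as a check.

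The arrays came from AGS, a cell line established from a human gastric adenocarcinoma. Cells with wild-type PRMT6 (control, n = 2 arrays) were compared with PRMT6-knockout cells (knockout, n = 2 arrays) to ask which transcripts differ when PRMT6 is disrupted. PRMT6 is an arginine methyltransferase whose best known mark is the asymmetric dimethylation of arginine 2 of histone H3. The knockout cells had been infected with a lentivirus carrying Cas9 and a guide against PRMT6 (lentiCRISPR v2), treated with puromycin and cloned by limiting dilution. Per the labels no treatment or time point was added, and they do not say which clone each knockout array came from, whether its arrays share a clone, or whether control cells received a vector or were cloned. The arrays are separate samples by their labels, and nothing says that they came from separate cultures, so the spread between them may be technical.

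Fibrinogen is a soluble plasma glycoprotein made mainly by hepatocytes and cut by thrombin into fibrin, the mesh of a blood clot. The secreted molecule is a dimer of alpha, beta and gamma chains that are joined by disulfide bonds in the endoplasmic reticulum. In the liver the chain genes are transcribed together, under factors such as C/EBP proteins, and they are induced by interleukin-6 in the acute phase response. FGL1 is likewise made mainly by hepatocytes and is known as a ligand of the inhibitory T cell receptor LAG3. Gastric epithelium is not a main source of either.

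FGA, FGB and FGG lie side by side on chromosome 4 in the RefSeq annotation, and the windows from 250 bases before to 50 bases after their starts are shown because the 3 neighbours differed to unequal extents between the groups. The sequences are from RefSeq on GRCh38.p14, written 5′ to 3′ on the strand of each gene. FGB is at chr4:154562730-154563029 on the plus strand, FGA at chr4:154590693-154590992 on the minus strand and FGG at chr4:154612607-154612906 on the minus strand. RefSeq gives FGB a second start close by, which is not shown. Capitals mark matches to the short motifs described next.
FGB: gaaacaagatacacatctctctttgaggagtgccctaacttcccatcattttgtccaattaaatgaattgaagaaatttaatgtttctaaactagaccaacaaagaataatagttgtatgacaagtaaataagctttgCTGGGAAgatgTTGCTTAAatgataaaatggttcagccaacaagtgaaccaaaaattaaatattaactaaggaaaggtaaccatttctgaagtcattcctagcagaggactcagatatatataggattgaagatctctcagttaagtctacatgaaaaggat
FGA: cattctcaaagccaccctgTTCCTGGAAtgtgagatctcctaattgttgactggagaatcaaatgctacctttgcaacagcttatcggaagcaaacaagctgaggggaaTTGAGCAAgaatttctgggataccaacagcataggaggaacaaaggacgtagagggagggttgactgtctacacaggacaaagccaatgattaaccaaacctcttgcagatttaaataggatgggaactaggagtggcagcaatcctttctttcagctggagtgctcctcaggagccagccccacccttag
FGG: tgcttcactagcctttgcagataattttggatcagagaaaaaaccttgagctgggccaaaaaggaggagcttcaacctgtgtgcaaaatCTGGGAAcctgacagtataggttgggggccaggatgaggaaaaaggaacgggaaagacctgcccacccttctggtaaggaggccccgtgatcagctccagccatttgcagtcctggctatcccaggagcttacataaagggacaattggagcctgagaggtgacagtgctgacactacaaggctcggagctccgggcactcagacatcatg

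Motifs of 5 factors of acute phase and liver genes were searched on both strands, and no match overlapped another. The core of the type II interleukin-6 response element, CTGGGAA, was present in FGB from 112 bases before the start and in FGG from 161 bases before it, and was not matched in FGA. The C/EBP pattern TTGCNNAA was matched in FGB from 101 bases and in FGA from 141 bases before the start. The STAT pattern TTCNNNGAA was matched in FGA, from 231 bases before it. FGG held no C/EBP or STAT match in its window. TGTTTAC, a site of FOXA factors, and CACGTG, the E-box bound by USF, were in none of the 3 windows. These letters are common. Of 35116 RefSeq windows of the same length, 10.8% held the interleukin-6 core, 10.5% the C/EBP pattern and 7.66% the STAT pattern, and 3.42% held the FOXA site and 7.26% the E-box. GC content was 32.7% in the FGB window, 47.0% in FGA and 52.0% in FGG, where the median window had 58.7%.

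**Figure D1:**
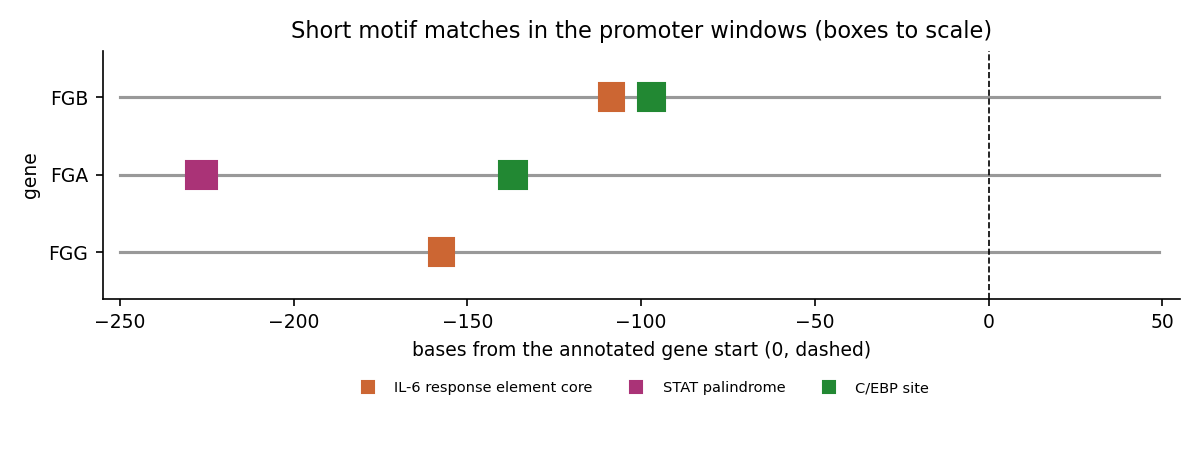
Positions of short motif matches (boxes, drawn to scale) in the promoter windows of FGB, FGA and FGG, by distance in bases from the annotated gene start (dashed line). FGB holds 2 matches, from 112 and 101 bases before the start, FGA holds 2, from 231 and 141 bases, and FGG holds 1, from 161 bases.

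FGB, the beta chain gene, differed most. Its brightest probe set (204988_at) had log2 intensities of 5.35 and 4.30 on the control arrays and 10.86 and 10.82 on the knockout arrays. The control arrays were far apart from each other, the knockout arrays nearly equal, and the groups did not overlap. The means were 4.83 ± 0.74 and 10.84 ± 0.03 (SD, n = 2 each), a difference of 6.01 on the log2 scale (SE 0.33) or 64.5-fold. Among the 19775 genes, 2 had a larger difference in that direction, ALDH1A1 (6.32) and ODAM (6.35). The control arrays of FGB lay 1.05 apart, and 0.0303% of all genes had control arrays at least that far apart. A control level of 4.83 is below that of the median gene (5.97), no detection call was used here, and whether FGB was above background in control cells is not known, so the fold is approximate.

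The other FGB probe set (216238_s_at) showed the same picture. Its control values were 4.81 and 3.88, its knockout values 10.85 and 11.06. The difference was 6.61 (SE 0.30), or 97.8-fold. Control array 1 was again the higher of the controls, by 0.93. Both probe sets therefore placed FGB above 10.8 on each knockout array and below 5.4 on each control array. The difference of the brightest probe set was 6.54 against control array 2 alone and 5.49 against control array 1 alone.

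FGA, the alpha chain gene, is read by 3 probe sets. The alpha chain carries the peptide that thrombin removes first when fibrin forms, and its transcript is spliced into a common form and a longer, rarer form called alpha-E. The brightest probe set (205650_s_at), listed under RefSeq accession NM_021871 of the common form, gave 7.55 and 7.21 in control cells. Both knockout arrays gave 9.16. The groups did not overlap, and the means of 7.38 ± 0.24 and 9.16 ± 0.0012 (SD, n = 2 each) differed by 1.78 (SE 0.13) or 3.42-fold; 70 genes had a larger rise. A dimmer probe set (205649_s_at), listed under NM_000508 of the alpha-E form, gave 4.54 and 3.97 in control cells against 6.25 and 6.45 in knockout cells, a difference of 2.09 (SE 0.20). Neither is specific to a form by its ID, since the letter s marks probes that can match several transcripts. Both had control array 1 above control array 2.

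The third FGA probe set (231671_at), the only one of the 3 without that letter, differed far less. It gave 4.35 and 4.34 in control cells against 4.68 and 4.65 in knockout cells, a difference of 0.32 (SE 0.08). It was below the median gene's level on all 4 arrays, and without detection calls it is not known to be above background. The mean of the 3 probe sets gave FGA a difference of 1.39. The size of the FGA difference therefore depended on the probe set, from 1.24-fold to 4.26-fold, while the knockout arrays were the higher ones in each.

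FGG, the gamma chain gene, was measured at a high level in both groups. The gamma chain carries the site by which fibrinogen binds the platelet integrin. Its 1 probe set (219612_s_at) gave 9.90 and 9.83 in control cells, and 10.11 and 10.28 in knockout cells. The groups did not overlap, and the means of 9.86 ± 0.05 and 10.19 ± 0.12 (SD, n = 2 each) differed by 0.33 (SE 0.09) or 1.26-fold; 2656 genes had a larger rise. When arrays were scaled to equal means of 9 reference genes it was 0.11 (SE 0.09), the control values being 9.99 and 9.95 and the knockout values 10.00 and 10.15. The small FGG difference thus depended on the scaling, whereas FGB (5.79) and FGA (1.55) stayed far from 0 under it.

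FGL1 was low in both groups. Its 1 probe set (205305_at) gave 4.79 and 4.88 in control cells, and 4.73 and 4.76 in knockout cells, below the level of the median gene on each. The means of 4.83 ± 0.06 and 4.74 ± 0.02 (SD, n = 2 each) differed by -0.09 (SE 0.08), with a 95% confidence interval of -0.29 to 0.11. It was -0.05 without control array 2 and -0.32 under reference gene scaling. That scaling gave a median difference over all genes of -0.23, against -0.01 as deposited, so FGL1 lay within 0.1 of the median gene under both.

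**Figure D2:**
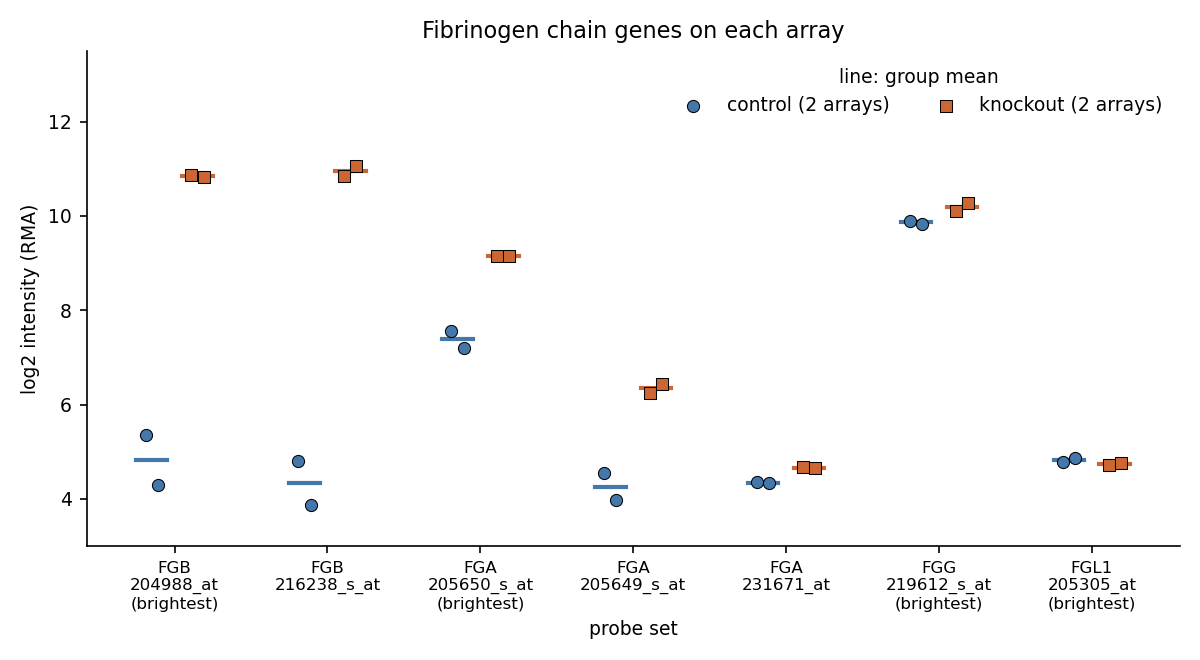
Log2 intensity (vertical axis) of each of the 7 probe sets of FGB, FGA, FGG and FGL1 on each array, with control arrays as circles, knockout arrays as squares and group means as lines. Both FGB probe sets stand below 5.4 on the control arrays and above 10.8 on the knockout arrays, while FGG and FGL1 differ little.

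Across the chain genes, knockout arrays lay above control arrays in 6 of the 6 probe sets of FGA, FGB and FGG. By the brightest probe sets the differences were 6.01 for FGB, 1.78 for FGA, 0.33 for FGG and -0.09 for FGL1, against a median absolute difference of 0.16 over all genes. These are differences within each probe set; brightness depends on the probes, so levels of one gene are not set against levels of another. The arrays of the groups did not overlap for 4 of the 4 genes, which held for 58.2% of all genes. FGA and FGB, 2 of the 4, had an adjusted p below 0.05 in limma, as did 24.0% of all genes. Because the contrast chose the genes, nothing is read from either count.

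The control arrays also differed from each other in 1 direction. Control array 1 was above control array 2 in 6 of the 6 probe sets of FGA, FGB and FGG, by 1.05 and 0.93 for FGB, 0.34, 0.57 and 0.01 for FGA and 0.07 for FGG. FGL1 went the other way, by 0.08. For FGB, 0.0303% and 0.0607% of all genes had control arrays at least as far apart. In the same order the shares were 8.90%, 1.12% and 93.9% for FGA. They were 67.7% for FGG and 62.5% for FGL1, so the smallest gaps were ordinary. Over all genes, control array 1 was the higher in 47.4%. The probe sets of a gene share its transcript and the same hybridised RNA, so they are not independent. In bulk RNA, more cells with the transcript and more transcript per cell cannot be told apart.

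Genes beside the chain genes on chromosome 4 differed less. Of the 5 measured protein-coding neighbours on each side of the chromosome 4 cluster, 0 of 10 passed the test in limma, which 24.0% of all genes did. An unadjusted p below 0.05 was reached by 2 of 10, and by at least 24.0% of all genes, since adjustment does not lower p. All but PLRG1 stood below the level of the median gene (5.97) on every array, whereas the 24.0% is over genes of all levels. PLRG1, a splicing factor gene next to FGB, stood at 10.17 and 10.18 on the control arrays and 10.17 and 10.22 on the knockout arrays. LRAT, which esterifies retinol and lies next to FGG, stood at 2.50, 2.42, 2.65 and 2.47 in the same order, low on every array. Differences of the 10 ran from -0.26 for NPY2R, a neuropeptide Y receptor, to 0.19 for TLR2, a receptor of innate immunity, with a median of 0.07. RNF175 (0.15), SFRP2 (0.06), DCHS2 (0.08), RBM46 (0.04), MAP9 (-0.09) and GUCY1A1 (0.19) stood at 4.23 or lower on each array. NPY2R passed the test under reference gene scaling (-0.48, adjusted p = 0.010, limma).

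Around FGL1, on chromosome 8, 4 of 10 neighbours passed the test in limma, against 24.0% of all genes, a share over genes of all levels. NAT1, an arylamine acetyltransferase, rose by 1.00 (SE 0.11), from 7.48 and 7.72 to 8.59 and 8.62. SLC7A2, a cationic amino acid transporter, fell by 0.80 (SE 0.08), PDGFRL fell by 0.66 (SE 0.11) and VPS37A, a part of the endosomal sorting machinery, fell by 0.57 (SE 0.08). MTUS1 (0.13), PCM1 (0.00), MTMR7 (0.10), NAT2 (0.11) and PSD3 (0.23) did not pass. ASAH1, acid ceramidase, was -0.04 by its brightest probe set and 0.84 (adjusted p = 0.0033, limma) by its gene-specific one. All 4 calls were lost with either knockout array left out (adjusted p up to 0.095).

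**Figure D3:**
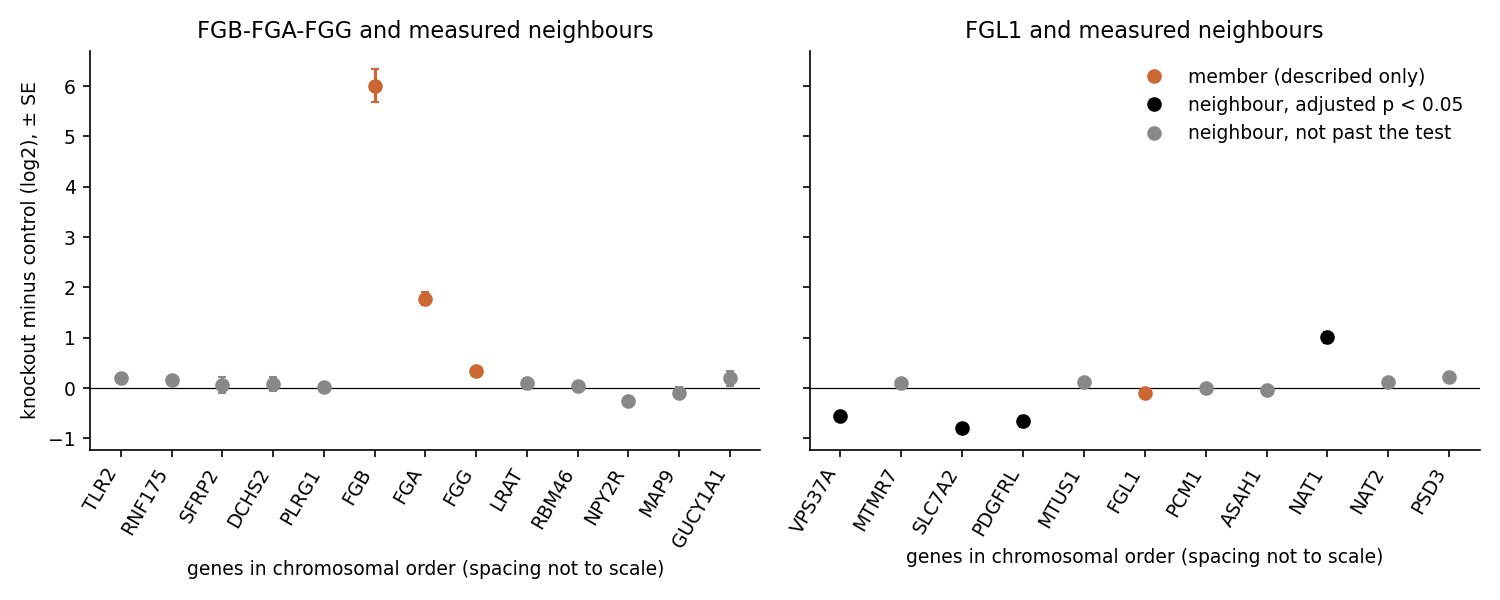
Difference between knockout and control (log2, with SE bars) for the chain genes and their 5 nearest measured protein-coding neighbours on each side, in chromosomal order. FGB (6.01) and FGA (1.78) stand apart from the neighbours of their cluster, which lie between -0.26 and 0.19.

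Profiles over the 4 arrays were compared by the root mean square difference of log2 values after setting each gene's control mean to 0. Nearest to FGB were ALDH1A1, a retinaldehyde dehydrogenase (0.45), and ODAM, a secreted protein known from tooth enamel (0.47). PCDH7 (1.38), AGR2 (1.64) and ANXA1 (1.67) followed at greater distances, and 0 genes lay within 0.25. Neither ALDH1A1, with controls at 2.65 and 2.70, nor ODAM, with controls at 4.33 and 4.38, had the wide gap between control arrays that FGB had. Nearest to FGA were CCDST (0.04), the acyl-CoA binding protein DBI (0.07), C1QTNF1-AS1 (0.09), the WNT antagonist DKK1 (0.09) and VSNL1 (0.09), and 41 genes lay within 0.25 of it. CCDST stood at 6.80 and 6.38 on the control arrays and 8.40 and 8.41 on the knockout arrays. A control gap like that of FGA follows from the ranking, which used all 4 arrays. FGG and FGL1 had no distinct profile: 8280 and 14035 genes lay within 0.25 of them, nearest WDR12, SMG8, HOMER3, DPH3 and THOP1 for FGG and GH1, SPSB3, SOCS4, PPIL1 and AGFG1 for FGL1.

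Genes of the coagulation cascade, on which fibrinogen depends to become fibrin, went both ways. Of 26 measured members 2 rose and 1 fell in limma, 11.5% called against 24.0% of all genes. The median difference was 0.00, against -0.01 over all genes. Most were dim, 21 of the 26 standing below the median gene's level on every array. In a fit of only the genes at or above the median level, 2 of 5 rose and 2 fell. There 2998 of 9888 genes rose and 2569 fell. TFPI, the inhibitor of the tissue factor pathway, rose by 2.28 (SE 0.13, adjusted p = 0.00070), from 2.70 and 2.99 on the control arrays to 5.20 and 5.05 on the knockout arrays. Its groups were far apart, though it stood below the level of the median gene throughout. F3, tissue factor, which starts the cascade, fell by 0.65 (SE 0.10), and PROCR, the endothelial protein C receptor, rose by 0.50 (SE 0.08). F2, the gene of prothrombin, whose active form cuts fibrinogen, stood at 4.85 and 5.08 on the control arrays and 4.86 and 4.96 on the knockout arrays. The TFPI call held under the 9 alternatives in which it was fitted. F3 and PROCR lost theirs with any single array left out, and PROCR also under reference gene scaling. With reference gene scaling 7 of the 26 fell, where 6245 of 19775 genes did.

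In fibrinolysis, which dissolves fibrin, 1 of 11 measured genes rose and 1 fell, 18.2% called against 24.0% of all genes. Below the median gene's level on every array were 7 of the 11. PLAUR, the urokinase receptor, fell by 1.24 (SE 0.09, adjusted p = 0.0013 in limma), from 9.27 and 9.20 to 7.92 and 8.06. S100A10, a partner of annexin A2 in binding plasminogen, rose by 0.65 (SE 0.08), a call lost with either knockout array left out (adjusted p up to 0.074). Of 16 receptors of fibrin or fibrinogen and partners of FGL1, 10 stood below the median gene's level on every array. Among the 16, TLR4 rose by 0.66 (SE 0.10) and the integrin subunit ITGB1 fell by 0.48 (SE 0.08), 12.5% called against the same 24.0%. Both calls were lost with either knockout array left out (adjusted p up to 0.097 for TLR4), and the gene-specific probe set of ITGB1 gave 0.088 (adjusted p = 0.71). Under reference gene scaling 4 of 11 fibrinolysis genes and 6 of 16 receptor genes fell, where 6245 of 19775 genes did. LAG3, the T cell receptor of FGL1, stood at 4.44, 4.45, 4.41 and 4.46 on the control and then the knockout arrays.

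No other listed and measured gene with a fibrinogen domain passed the test. This family shares the globular domain of the beta and gamma chains and of FGL1, and includes angiopoietins, ficolins and tenascins. Of 16 measured members 0 were called in limma, where 24.0% of all genes were, 0 had an unadjusted p below 0.05, and the median difference was 0.03. The farthest were TNR, a tenascin (-0.22), and ANGPT4, an angiopoietin (0.15). FGL2, the relative of FGL1, stood at 2.58, 2.78, 2.70 and 2.89. Except for TNXB, each stood below the median gene's level on all 4 arrays. Of the 16, 1 fell under reference gene scaling, where 6245 of 19775 genes did.

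Acute phase genes, which the liver induces together with fibrinogen, went both ways. Of 18 measured members 3 rose and 3 fell in limma, 33.3% called against 24.0% of all genes, with a median of -0.05. Below the median gene's level on every array were 12 of the 18. LCN2, a lipocalin that binds iron-carrying siderophores, fell by 2.44 (SE 0.08, adjusted p = 0.00026), from 7.25 and 7.33 to 4.89 and 4.81. SERPINA3, antichymotrypsin, fell by 1.75 (SE 0.13), from 6.37 and 6.51 to 4.52 and 4.85. C4BPA, a complement inhibitor, rose by 0.90 (SE 0.09) and ITIH4, an inter-alpha-trypsin inhibitor heavy chain, by 0.82 (SE 0.12), calls lost with either knockout array left out (adjusted p up to 0.094). The pentraxin CRP, at 3.93, 3.85, 4.02 and 3.75, and haptoglobin HP, at 4.69, 5.08, 4.91 and 4.99, were low on all arrays. Under reference gene scaling 7 of the 18 members fell, where 6245 of 19775 genes did.

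Hepatocyte genes other than the chain genes were mostly dim. Of 21 measured members 16 stood below the median gene's level on every array, among them albumin ALB at 3.03, 3.21, 3.12 and 2.83, and 2 rose and 2 fell in limma, with a median of -0.02. The share called was 19.0%, near the 24.0% of all genes. APOA2, the gene of a protein of high-density lipoprotein, fell by 3.63 (SE 0.08, adjusted p = 0.00012, limma), from 12.34 and 12.29 to 8.73 and 8.64. The asialoglycoprotein receptor subunit ASGR1 fell by 0.66 (SE 0.10), the plasma protein gene APOH rose by 0.73 (SE 0.16) and the fatty acid binding protein gene FABP1 by 0.52 (SE 0.11). The summed linear intensity of the list was 5790 and 5700 on the control arrays and 1082 and 1035 on the knockout arrays, of which APOA2 made up 80.9% on average. ASGR1 did not pass in any fit that omitted an array (adjusted p up to 0.082). APOH and FABP1 did not pass under reference gene scaling, without either knockout array, or with gene-specific probe sets (-0.016, adjusted p = 0.94, limma, for APOH). APOH also did not pass with either control array left out or with the replicate block, nor FABP1 without control array 2. With reference gene scaling 6 of the 21 members fell, where 6245 of 19775 genes did.

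The labelled cell type was checked in the same way. Of 16 markers of gastric epithelium EPCAM, KRT8, KRT18 and KRT19 stood above 11.7 on every array, while 7, namely KRT7, MUC5AC, MUC6, TFF2, GKN1, GKN2 and CLDN18, stood below the median gene's level on all arrays. In limma 2 of the 16 rose and 3 fell, 31.25% called against 24.0% of all genes. In a fit of only the genes at or above the median level, 2 of 9 rose and 4 fell. There 2998 of 9888 genes rose and 2569 fell. KRT19 rose by 0.61 and KRT8 by 0.49. TFF1, a gastric trefoil peptide, fell by 3.37, CTSE by 0.96 and PGC by 0.79. The TFF1 call held under all alternatives. That of CTSE was lost without knockout array 2, those of PGC and KRT19 without either knockout array, and that of KRT8 with any array left out, with the replicate block and under reference gene scaling. Their summed linear intensity was 30526 to 31573 on control and 30205 to 30743 on knockout arrays. Platelet and megakaryocyte markers, a second natural store of fibrinogen, were dim in 8 of 10 measured genes, PF4 stood at 4.42 to 4.53, and GP6 rose by 0.57 (adjusted p = 0.012, limma), a call lost with either knockout array left out (adjusted p up to 0.12); the list summed to 348 and 363 on control and 389.7 and 389.5 on knockout arrays. Of 4 leukocyte markers 0 were called in limma, against 24.0% of all genes. All 4 had an unadjusted p below 0.05 in limma, as did at least those 24.0%, since adjustment does not lower p. The farthest were lysozyme LYZ, which gastric cells also make, at 12.77 and 12.88 on control and 12.36 and 11.30 on knockout arrays, and PTPRC, at 2.63 and 2.84 on control and 3.42 and 3.03 on knockout arrays. Their part in the chain gene differences was not tested.

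Among genes of interleukin-6 family signalling, which induces fibrinogen through STAT3 in the liver, 5 of 19 fell and 1 rose in limma, with a median of -0.19. The share called was 31.6%, against 24.0% of all genes, which is over genes of all levels. In a fit of only the genes at or above the median level, 2 of 14 rose and 5 fell. There 2998 of 9888 genes rose and 2569 fell. IL6R, the receptor subunit that binds interleukin-6, fell by 1.45 (SE 0.09, adjusted p = 0.0010), from 6.49 and 6.52 to 4.97 and 5.14. The kinase gene JAK1 fell by 0.85 (SE 0.08), the oncostatin M receptor gene OSMR by 0.47 (SE 0.10), and the transcription factor gene STAT3 rose by 0.45 (SE 0.10). SOCS1, a feedback inhibitor of the pathway, fell by 0.44 (SE 0.11, adjusted p = 0.041), a call lost with any array left out, with the replicate block and with the mean of its probe sets. SOCS3, a feedback target of STAT3, stood at 6.62, 6.64, 6.53 and 6.35 without overlap of the groups, a difference of -0.19 that did not pass, and IL6 itself at 3.57, 3.54, 3.47 and 3.50. The IL6R call held under the 9 alternatives in which it was fitted, while those of JAK1, OSMR and STAT3 were lost with either knockout array left out. OSMR also did not pass with the mean of its probe sets or without control array 1, nor STAT3 without control array 2. Under reference gene scaling 12 of the 19 fell, where 6245 of 19775 genes did, and STAT3 did not pass (adjusted p = 0.11, limma).

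Of 18 measured transcription factors of liver promoters 6 fell and 2 rose in limma, with a median of -0.11. The share called was 44.4%, against 24.0% of all genes, of which 2281 fell and 2459 rose. That 24.0% is over genes of all levels. In a fit of only the genes at or above the median level, 2 of 14 factors rose and 5 fell. There 2998 of 9888 genes rose and 2569 fell. CEBPB, a C/EBP factor of the acute phase, fell by 2.17 (SE 0.13, adjusted p = 0.00083), from 12.64 and 12.66 to 10.31 and 10.64. CEBPG fell by 1.22 (SE 0.10), the pioneer factor gene FOXA2 by 1.12 (SE 0.09) and the nuclear receptor gene HNF4G by 0.69 (SE 0.08). CEBPD, another acute phase C/EBP factor, rose by 0.65 (SE 0.09), and USF1, an E-box factor, rose by 0.50 (SE 0.09). CEBPA stood at 9.64, 9.65, 9.45 and 9.58, and its difference did not pass. The FOXA2 call was lost without knockout array 2 (adjusted p = 0.051). Those of HNF4G, CEBPD and USF1 were lost with either knockout array left out. The calls of HNF4G and CEBPD were also lost with the mean of probe sets, and that of CEBPD with its gene-specific probe set. USF1 also did not pass without control array 2 or under reference gene scaling. With that scaling 11 of the 18 fell, where 6245 of 19775 genes did.

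Genes of the folding and export machinery that secreted proteins such as fibrinogen use were lower. Of 18 measured genes of endoplasmic reticulum folding, cargo export and processing 14 fell and 0 rose in limma. That is 77.8% called, against 24.0% of genes of all levels. All 18 differences were negative, with a median of -0.58. In a fit of only the genes at or above the median level, 14 of 17 fell and 0 rose. There 2998 of 9888 genes rose and 2569 fell. Under reference gene scaling 17 of the 18 fell, where 6245 of 19775 genes did. SEC24D, a cargo adaptor of COPII vesicles, fell by 2.01 (SE 0.21), from 9.25 and 9.61 to 7.69 and 7.15. The disulfide isomerase gene PDIA4 fell by 1.35 (SE 0.09), the chaperone gene HSPA5, which binds unassembled chains, by 1.02 (SE 0.07), and HSP90B1 by 0.99 (SE 0.08). LMAN1 (-0.92, SE 0.08) and MCFD2 (-0.97, SE 0.08), which form the cargo receptor of coagulation factors V and VIII, fell as well. Knockout arrays were thus higher for FGB and FGA and lower for much of this machinery. With single arrays left out the list median lay between -0.61 and -0.58, and the median of all genes between -0.03 and 0.02. Fewer members passed in each of these fits, and fewer of all genes did too. The calls of SEC24D and HSP90B1 were lost without knockout array 2, those of LMAN1 and MCFD2 without either knockout array.

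**Figure D4:**
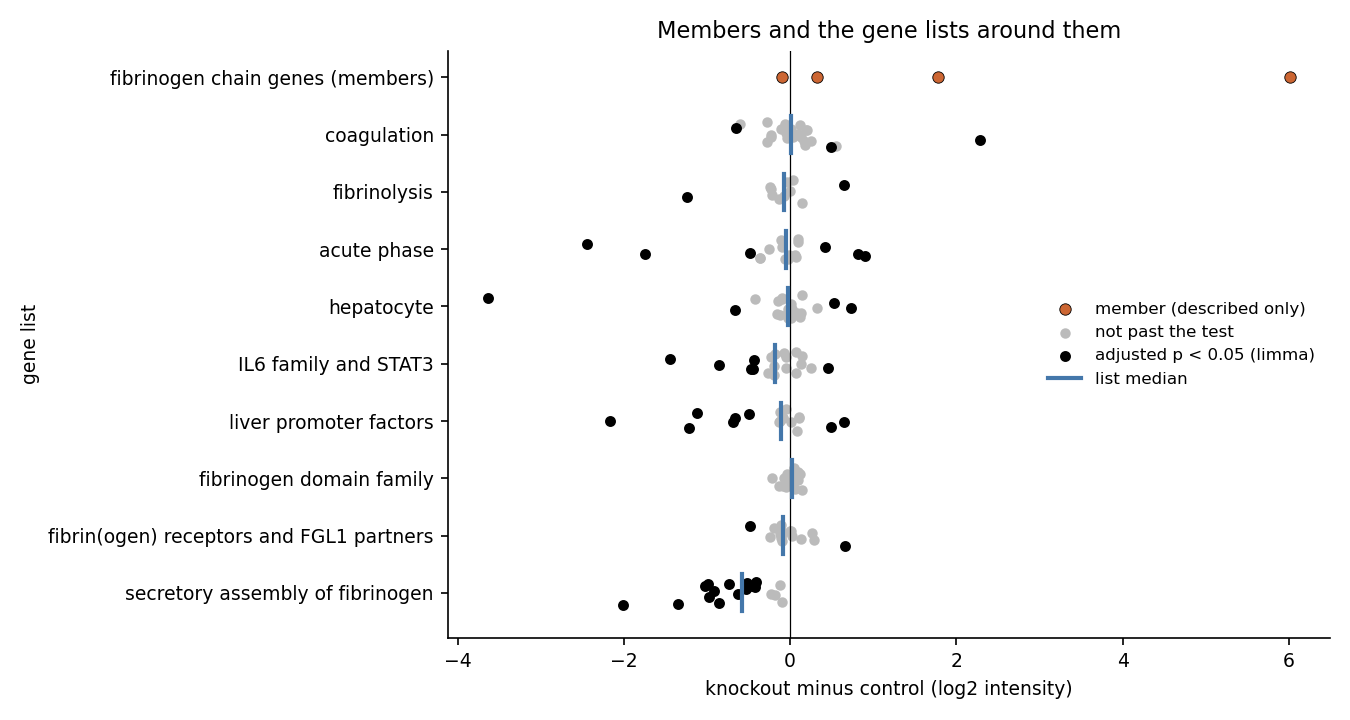
Difference between knockout and control (log2, horizontal axis) for the 4 chain genes and for each measured gene of 9 lists, with black points past the test in limma, grey points not past it and a bar at each list's median. The secretory list is shifted to the left (median -0.58), while the medians of the other lists lie between -0.19 and 0.03.

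Facts of the whole series bear on these values as follows. The deposited table holds 54613 probe sets per array, with array medians of 5.01 to 5.02, and Pearson's r over those probe sets reached 0.995 between control arrays, 0.996 between knockout arrays and 0.981 to 0.984 across groups. PRMT6 stood at 8.03 and 8.11 on control and 7.79 and 7.63 on knockout arrays, a fall by 0.36 (SE 0.09, adjusted p = 0.043, limma) that did not pass in any fit omitting an array (adjusted p up to 0.23), in the fit over gene-specific probe sets (0.057) or with the replicate block (0.076). Over all genes 2459 rose and 2281 fell, 51.9% of calls being rises, against 17.6% under reference gene scaling. The share called depended on the level. In a fit of only the 9888 genes at or above the median level, 2998 rose and 2569 fell. The array reads the amount of PRMT6 transcript and not the edit or the protein.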

How the data were processed

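The submitters' processing notes name RMA and the affy package, without versions, and the deposited table holds log2 intensities per probe set; RMA corrects background, quantile-normalizes arrays and summarizes probes, which removes changes in total RNA and compresses dim differences. Total RNA was amplified from the 3′ end and labelled with biotin, per the labels' protocols. Each of 19775 genes was represented by its brightest probe set with 1 gene name, with symbols updated by Entrez number to RefSeq (GRCh38.p14). Of the probe sets, 41091 had 1 name, 1801 several and 11721 none. The groups were set against each other in R 4.3.3 with limma 3.58.1 (lmFit and eBayes; 2 residual degrees of freedom plus a prior of 3.27), with Benjamini-Hochberg adjustment over all genes and a call at an adjusted p below 0.05. The fit was tested on simulated data. The number of arrays limits the precision, and a gene that did not pass may still differ. The members and gene lists were chosen with earlier results of these data known. Of 215 listed genes 192 were measured. Named were the members, PRMT6, up to 4 called genes of each list with the largest change (or 2 where none was called), the neighbours, and the 5 nearest profiles; other genes named were chosen after their values were seen. Alternatives were the mean of probe sets, gene-specific probe sets, brighter genes only, an intensity trend, scaling to the 9 of 12 listed reference genes that had a probe set, the replicate number as a block, and each array left out. Promoter windows came from RefSeq; the motifs were chosen from general knowledge of fibrinogen promoters. Beside the motifs and factors given, a further motif and the genes of its factor are not reported here.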

Additional observations from a re-analysis of the deposited data

How the results depend on the processing

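Of 6 processing alternatives, only 2 could move the FGB difference. It was 6.31 with the mean of its probe sets and 5.79 under reference gene scaling, both within the spread between arrays. With the gene-specific probe set, brighter genes only, the intensity trend and the replicate block it was 6.01 by construction. Those fits use the same probe set and group means. FGA was 1.39 with the mean of its probe sets, 0.32 with its gene-specific probe set and 1.55 under reference gene scaling, where FGG was 0.11 and FGL1 -0.32; FGG has no gene-specific probe set, and FGL1 was not among the brighter genes. With single arrays left out, FGB ranged from 5.49 to 6.54, FGA from 1.60 to 1.95, FGG from 0.24 to 0.41 and FGL1 from -0.13 to -0.05. Over all genes 2459 rose and 2281 fell; 1616 rose with gene-specific probe sets, and under reference gene scaling 1338 rose and 6245 fell. With single arrays left out 154 to 1371 rose and 354 to 1258 fell. Of genes in the lists 15 rose and 36 fell, against 8 and 80 under reference gene scaling and 1 to 11 and 10 to 28 with single arrays left out. Among the neighbours of FGL1, 2 rose with gene-specific probe sets and 2 among the brighter genes, and 0 to 1 rose and 0 to 2 fell with single arrays left out; 1 neighbour of FGB, FGA and FGG fell under reference gene scaling. Differences changed sign with gene-specific probe sets for APOH (-0.016), ASAH1 (0.84) and ITGB1 (0.088). Arrays of the same number did not deviate together (r = 0.05 over genes), so the numbers are not known to pair them. With the replicate number as a block 2035 genes rose and 1937 fell, and FGB (6.01) and FGA (1.78) kept their values by construction; of 48 named genes called, 3 lost their call with the block, against 25 without knockout array 1 and 29 without knockout array 2. With 1 array left in a group, that array is assumed to vary like the others. The causes were not tested. Without detection calls, signal over background limits the folds of FGB and of all dim genes.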
